A study of Mus musculus with 20 samples.

Results

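Myc, Mycn and Mycl are the 3 genes of the MYC family, and the accessible sites around them were followed across mouse embryonic stem cells that lived on a wild-type or a mutant CTCF. The genes were taken by symbol, 3 of 49943 genes in a RefSeq table, and every peak that reached within 200 kb of either gene end was kept, whatever its strength. Merged over the 10 deposited peak lists by overlaps of at least 1 bp, these peaks made 206 regions of 222457 in the genome, 55 around Myc, 75 around Mycn and 76 around Mycl. In single lists they came to between 119 peaks of 121032 (R339Q) and 148 of 150933 (R377C) in the mutants, and 157 of 171719 in WT.

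MYC proteins are transcription factors that pair with MAX, bind the E-box and raise the output of genes for ribosome production, metabolism and the cell cycle. In mouse embryonic stem cells Myc and Mycn act largely in each other's place, and loss of both slows growth and protein synthesis while the cells keep their identity. Mycl, the third family member, is best known for its amplification in small-cell lung cancer. Myc lies in a stretch of chromosome 15 with few genes, next to the long non-coding RNA gene Pvt1, and is known in several tissues for enhancers far from the gene. CTCF binds DNA through its zinc fingers and, with cohesin, sets the loops that bring such distant sites to genes or keep them apart.

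The RefSeq promoter table (GRCm38.p6) holds Mycn and Mycl, and the bases before the Mycn start are printed because the peaks at that gene cover them only in part. The stretch lies at chr12:12941837-12942086 on the minus strand and is given 5′ to 3′, with capitals at the letters TTTGGCGC, a form of the E2F binding sequence. E2F factors drive the entry into S phase, and this motif was picked with the sequence in view.
Mycn promoter: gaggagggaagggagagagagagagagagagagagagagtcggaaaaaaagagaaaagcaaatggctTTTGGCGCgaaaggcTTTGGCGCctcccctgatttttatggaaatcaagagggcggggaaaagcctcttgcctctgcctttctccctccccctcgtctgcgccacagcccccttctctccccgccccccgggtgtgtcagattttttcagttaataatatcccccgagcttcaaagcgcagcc
The motif was searched on both strands and occurs at 183 to 176 and at 168 to 161 bases before the start, without overlap between the copies. Of 32817 promoters of the same length, 0.417% hold it at least once. The E-box CACGTG, searched in the same way and present in 6.02% of promoters, is in neither the Mycn nor the Mycl stretch. Peaks overlapped the Mycn bases in 7 mutant lists and covered at most 176 of the 250 bases. The Mycl bases, at chr4:122995681-122995930 on the plus strand, lie inside the annotated gene, carry TATAAA (in 12.4% of promoters, searched in the same way) at 8 to 3 bases before the table's start, and were covered over their whole length in all 10 lists. GC content was 54.8% in the Mycn and 63.6% in the Mycl stretch, beside a median of 52.4% over all promoters.

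Omni-ATAC-seq, in which a transposase cuts and tags open chromatin, was carried out on 20 samples, 2 for each of 10 genotypes. The cells were E14Tg2a (strain 129/Ola) and clones made from them, and all groups shared the same removal of endogenous CTCF through an auxin degron (500 µM indole-3-acetic acid) and the same induction of a Ctcf transgene (1 µg/ml doxycycline) for 2 days, in feeder-free serum medium with LIF and inhibitors of GSK3 and MEK. The transgenes were R339Q and R342C in zinc finger 3, S354F and K365T in zinc finger 4, R377C and R377H in the linker that follows it, Q418R in zinc finger 6, R448Q and H455R in zinc finger 7, and WT, and the labels do not give the finger of each residue, which is textbook knowledge. Each peak list joins both replicates of a genotype, so no value below has a replicate error, no test between genotypes was possible, and the intervals given cover counting error over peaks alone. The labels do not say how many clones stand for a genotype.

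Lists ran from 121032 peaks in R339Q to 159957 in H455R among the mutants, and the WT list was the longest with 171719. Background coverage, read from the steps of the fold values and the nearest thing to a depth that the lists give, was 3.49 (K365T) to 5.45 (R448Q) in the mutants and 5.96 in WT. Of the fold values, 28.9% (Q418R) to 33.8% (R448Q) in the mutants and 33.1% in WT lay on these steps, and the rest lay off them. Library codes in the peak names were neighbours in 8 lists and lay 42 and 28 apart in K365T and WT. List length, background coverage and these codes cannot be told apart from genotype. All 8 embryonic stem cell markers examined, Pou5f1, Nanog and Sox2 among them, had a peak within 1 kb of a gene end in every list. Fibroblast markers had such a peak at 3 to 5 of 6 genes and primitive endoderm markers at 2 to 3 of 4, Postn and Gata4 having none in any list. Of 21887 protein-coding genes 15483 had such a peak in WT, and 91.5% of those had one in all 9 mutants. By the within-list percentile defined below, the median over genes was 60.3 for stem cell and 65.9 for fibroblast markers. The median was 59.6 for primitive endoderm markers and 83.0 over all protein-coding genes. Pou5f1 stood at 3.78 in WT. By rank the stem cell markers were thus not set apart from the others.

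Strength is given below as a percentile of the authors' fold enrichment within a peak's own list, where 100 is the strongest peak. It ranks a ratio of observed to expected coverage, so a low rank need not mean that a site is little open. At Myc itself (chr15:61985341-61990361) peaks ranked low in every genotype. A region over the start of the gene, chr15:61984886-61985913, stood at 37.3 in R339Q, 10.1 in R342C, 13.5 in S354F, 21.5 in K365T, 22.9 in R377C, 41.4 in R377H, 26.9 in Q418R, 24.4 in R448Q and 25.7 in H455R, and at 25.97 in WT. A further region inside the gene, chr15:61986682-61988081, stood at 16.5 in R339Q, 39.6 in R342C, 29.6 in S354F, 4.91 in K365T, 31.1 in R377C, 17.8 in R377H, 30.9 in Q418R, 14.8 in R448Q and 43.8 in H455R, and at 31.2 in WT. Both regions were present in all 10 lists and both stayed below the median of every list, with WT inside the range of the mutants. Their order was not shared: R377H was highest and R342C lowest at the start of the gene, whereas H455R was highest and K365T lowest inside it. Ranks in lists of different lengths show no change, and so none is drawn from these values. With every list cut to its strongest 121032 peaks, the start region was no longer held by R342C, S354F or WT, and the inner region no longer by K365T or R448Q. Close beside the gene all 10 lists held regions of higher rank. Before Myc, at 5.99 kb, chr15:61978362-61979350 stood at 77.5 in R377C to 88.4 in Q418R and at 85.96 in WT. Past it, at 4.22 kb, chr15:61994577-61995431 stood at 73.99 in R448Q to 88.7 in Q418R and at 86.5 in WT.

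Most genes with a peak at an end had a stronger one than Myc. Among protein-coding genes with a peak within 1 kb of either end, the strongest peak at Myc ranked at the 1.90 to 9.25 percentile in the mutants and at the 4.62 percentile in WT, where the median gene's strongest end peak lay at 82.2 to 85.8 of the mutant lists and 84.7 of the WT list. The genes whose gene-end percentiles came nearest to those of Myc over the 10 lists were Sox18, Pde4a and Il17b, with root-mean-square differences of 6.70, 9.13 and 9.67 points among 14167 genes compared. For Mycl the nearest genes were Fetub, Ucma and Sh3glb1, at 1.91, 1.95 and 2.35 points.

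Mycn (chr12:12936093-12941836, minus strand, so that its start is the higher coordinate) carried stronger regions. Just before the start, chr12:12942232-12943790 stood at 70.9 in R339Q, 67.5 in R342C, 65.02 in S354F, 64.1 in K365T, 60.4 in R377C, 60.8 in R377H, 67.8 in Q418R, 55.7 in R448Q and 62.5 in H455R, and at 71.9 in WT. Inside the gene, chr12:12938415-12939286 stood at 51.4 in R339Q, 53.04 in R342C, 56.8 in S354F, 52.7 in K365T, 60.4 in R377C, 58.3 in R377H, 47.5 in Q418R, 49.7 in R448Q and 65.4 in H455R, and at 60.3 in WT. At the start itself a small region, chr12:12941662-12942012, was called in 7 mutants at 0.399 in R377H to 11.6 in H455R, and neither in R339Q and R342C nor in WT. This region is the one that reaches into the promoter bases printed above, and its peaks were among the weakest of their lists. One more region at Mycn, chr12:12937327-12937569, was called in R448Q alone at 11.4.

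The edge of the region before the start decides the gene-end value of Mycn. Within 1 kb of either gene end there was no peak in R339Q and R342C, as the region inside the gene lies farther from both ends. The strongest such peak ranged from 0.649 to 60.8 in the other mutants and stood at 0.843 in WT. Within 2 kb it was 55.7 to 70.9 in the mutants and 71.9 in WT. The difference lies in where the called peak begins. By the value at 1 kb, over the 8 lists that have it, the genes nearest to Mycn were Efna5, Rab19 and Rasl10a, at 13.2 to 15.1 points.

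Mycl (chr4:122995588-123002490, plus strand) had its strongest region toward the far end of the gene. That region, chr4:123000720-123001929, stood at 71.5 in R339Q, 69.2 in R342C, 76.1 in S354F, 72.8 in K365T, 72.2 in R377C, 67.7 in R377H, 67.98 in Q418R, 69.03 in R448Q and 70.7 in H455R, and at 78.1 in WT. The region over the start, chr4:122995316-122996575, stood at 51.7 in R339Q, 43.3 in R342C, 57.1 in S354F, 42.3 in K365T, 60.4 in R377C, 48.2 in R377H, 35.2 in Q418R, 53.7 in R448Q and 52.2 in H455R, and at 63.6 in WT. WT held the highest value at both, and also at the region before the Mycn start. In lists cut to equal size this no longer held: the far-end region then stood at 72.2 in S354F and 71.5 in R339Q, against 68.99 in WT, and the start region at 51.7 in R339Q, against 48.4 in WT. The region before the Mycn start likewise stood at 70.9 in R339Q, against 60.2 in WT.

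Weaker regions inside Mycl came and went between lists. Region chr4:122998616-122998879 was called in 6 mutants, at 6.66 in R377H to 21.2 in R448Q, and not in K365T, R377C, H455R or WT. Region chr4:122999251-122999675 was called in R342C, K365T, Q418R and R448Q, at 0.0659 in R342C to 2.50 in Q418R, and in WT at 0.0798. Over the 3 genes, all 9 mutants held 6 of the 7 WT peaks that overlapped a gene (85.7%, 95% exact interval 42.1 to 99.6%). The share for WT peaks of the same strength across the genome was 39.3%, matched on strength alone and not on lying in a gene. By gene, 91.5% of protein-coding genes with a gene-end peak in WT had such a peak in all 9 mutants. The 7 peaks were not independent, since some lay in the same Myc region, where the same R377C peak overlapped them. No special retention at these genes is drawn from the gap.

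**Figure D1:**
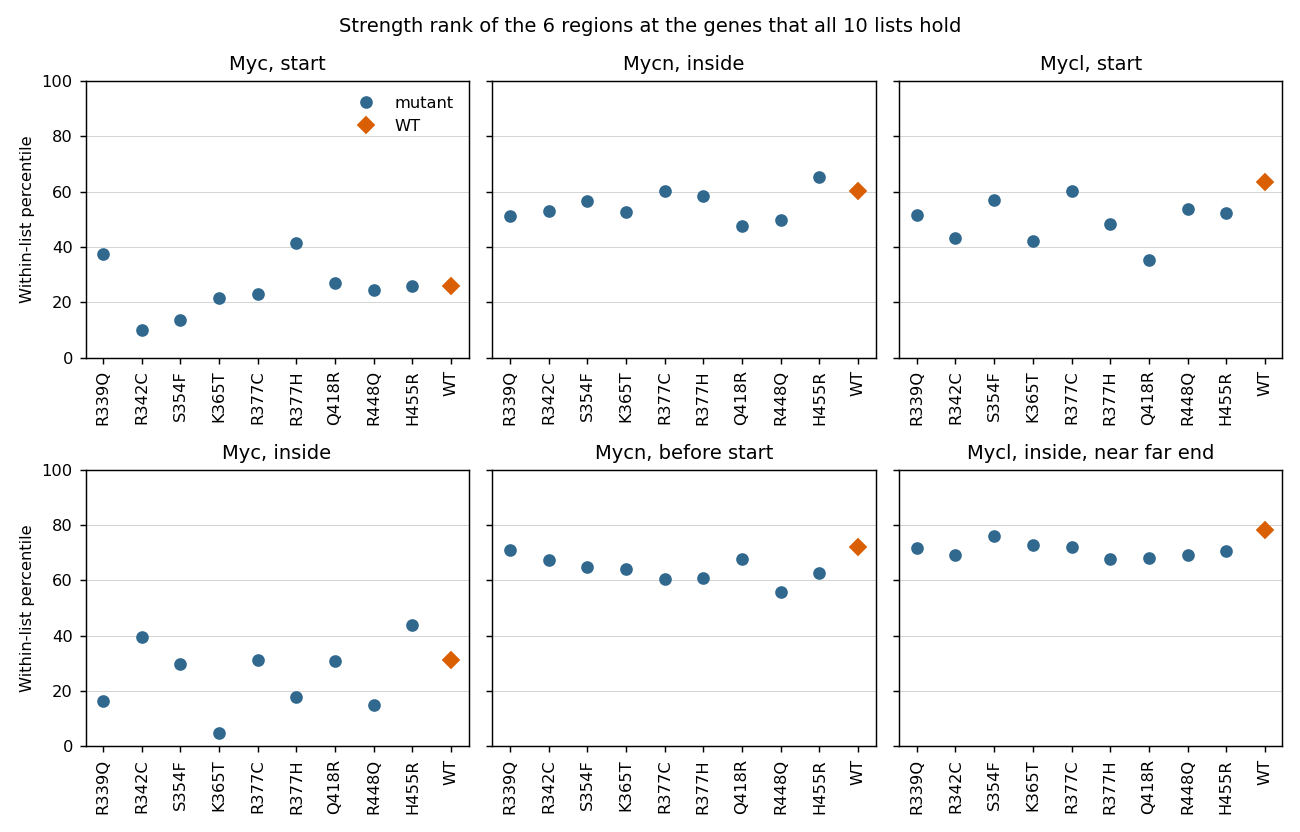
Within-list percentile (vertical axis, 100 is the strongest peak) of the 6 regions at Myc, Mycn and Mycl that all 10 lists hold, by genotype along the horizontal axis with the mutants on the left and WT, drawn as a diamond, on the right. The start region of Myc stayed between 10.1 and 41.4 in the mutants with WT at 25.97, and the far-end region of Mycl between 67.7 and 76.1 with WT at 78.1.

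The 3 genes differ in their neighbourhoods. No other protein-coding gene lies within 200 kb of Myc or of Mycn, and 9 lie within 200 kb of Mycl. Open sites were of ordinary density all the same: WT held 51, 49 and 57 peaks in the Myc, Mycn and Mycl windows, or 126, 121 and 140 per Mb, beside a median of 111 per Mb over the same window around every protein-coding gene (percentiles 56.2, 53.9 and 62.2). Around Myc the sites lay almost wholly on one flank. Of its 55 regions 47 were on the Pvt1 side and 6 on the other, with 20 and 2 of them in all 10 lists. Around Mycn 50 of 75 regions lay beyond the gene's far end and 22 beyond its start. The Mycl regions split into 26 before the gene and 46 past it.

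**Figure D2:**
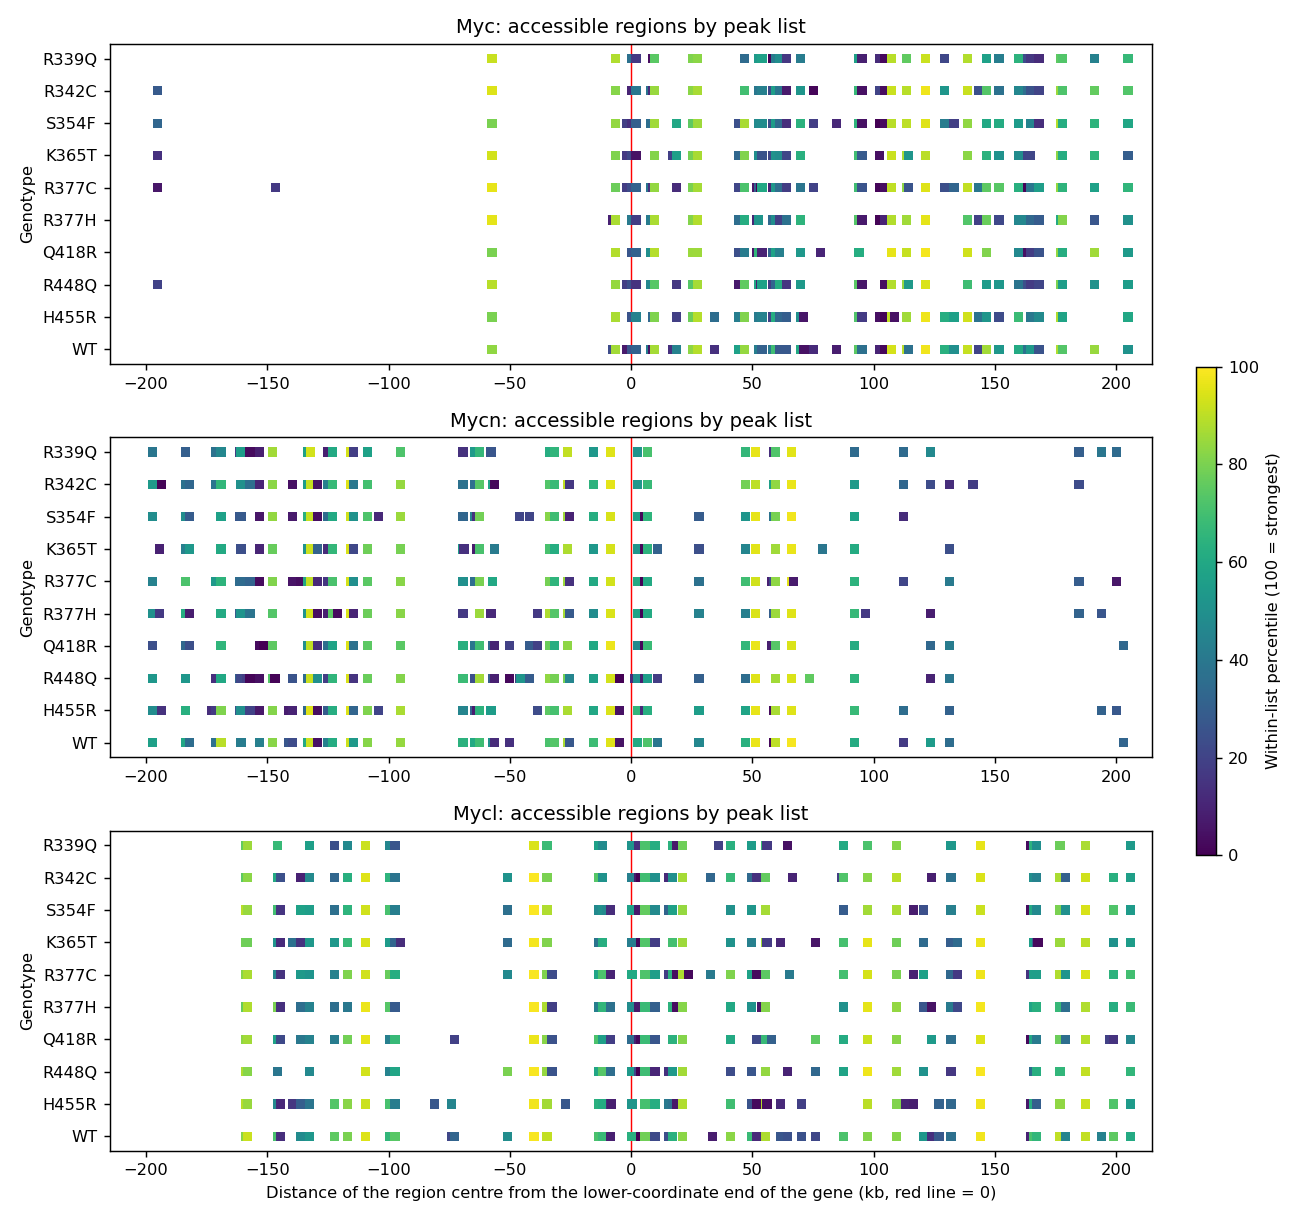
Peaks within 200 kb of Myc, Mycn and Mycl, 1 panel a gene, with the distance of the region's centre from the gene's lower-coordinate end in kb along the horizontal axis, 1 row a genotype (mutants above, WT at the bottom) and colour for the within-list percentile. Columns of marks that run through all 10 rows are the 76 regions present in every list, and around Myc 47 of 55 regions lie on the Pvt1 side.

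About as many WT peaks near the MYC genes were kept by every mutant as elsewhere in the genome. All 9 mutants held 25 of 51 (49.02%, 95% exact interval 34.8 to 63.4%, 45.6% at equal strength) of the WT peaks around Myc. Around Mycn they held 27 of 49 (55.1%, 95% exact interval 40.2 to 69.3%, 52.95% at equal strength), and around Mycl 29 of 57 (50.9%, 95% exact interval 37.3 to 64.4%, 54.2% at equal strength). The share over all WT peaks was 48.5%, inside each interval, and the share at equal strength is that of WT peaks genome-wide with the same make-up over 20 bins of fold value. Among windows of all protein-coding genes with at least 10 WT peaks these shares ranked at the 43.4, 72.1 and 52.8 percentile. WT peaks without an overlap in any mutant numbered 1 around Myc, 0 around Mycn and 3 around Mycl, 2.55% of the 157, beside 5.42% of all WT peaks. Strong sites were kept most often, here as genome-wide. Of the 85 WT peaks in the stronger 50% of the WT list, 72 were in all 9 mutants (84.7%, beside 79.5% genome-wide). In the strongest 20% it was 36 of 37, beside 33526 of 34344 genome-wide.

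The shares did not order by distance from the gene. Of WT peaks outside the genes, 23 of 43 within 50 kb were in all 9 mutants (53.5%), then 16 of 37 at 50 to 100 kb (43.2%) and 36 of 70 at 100 to 200 kb (51.4%). The shares at equal strength were 53.2%, 42.5% and 55.4%, and the 95% exact intervals of the 3 classes overlapped.

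Taken mutant by mutant, 50 in R339Q, 32 in R342C, 35 in S354F, 42 in K365T, 29 in R377C, 42 in R377H, 43 in Q418R, 36 in R448Q and 33 in H455R of the 157 WT peaks had no overlapping mutant peak. As percentages these are 31.8% in R339Q (35.1% of all WT peaks), 20.4% in R342C (26.1% of all WT peaks), 22.3% in S354F (24.3% of all WT peaks), 26.8% in K365T (28.3% of all WT peaks), 18.5% in R377C (20.9% of all WT peaks), 26.8% in R377H (26% of all WT peaks), 27.4% in Q418R (30.8% of all WT peaks), 22.9% in R448Q (27.7% of all WT peaks) and 21.02% in H455R (19.3% of all WT peaks). Peaks of the same strength across the genome give expected numbers of 52.1 in R339Q, 38.6 in R342C, 35.98 in S354F, 41.9 in K365T, 30.96 in R377C, 38.4 in R377H, 45.6 in Q418R, 41.05 in R448Q and 28.7 in H455R. R339Q, with the shortest list, lacked the most WT peaks both here and genome-wide, and R377C lacked the fewest here. In lists cut to equal size R339Q lacked 16.96% of the WT peaks near the 3 genes, beside 21.6% of all WT peaks. R448Q and H455R each lacked 19.6% near the genes at that size and R377H 18.8%, so R339Q no longer lacked the most there. In every mutant the whole-list share lay inside the 95% exact interval of the share near the 3 genes.

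Window by window, the missing WT peaks numbered 15 in R339Q, 12 in R342C, 10 in S354F, 13 in K365T, 7 in R377C, 14 in R377H, 19 in Q418R, 13 in R448Q and 11 in H455R of 51 around Myc. Around Mycn they numbered 14 in R339Q, 6 in R342C, 10 in S354F, 14 in K365T, 9 in R377C, 13 in R377H, 11 in Q418R, 5 in R448Q and 9 in H455R of 49. Around Mycl they numbered 21 in R339Q, 14 in R342C, 15 in S354F, 15 in K365T, 13 in R377C, 15 in R377H, 13 in Q418R, 18 in R448Q and 13 in H455R of 57. Of these 27 shares, those of R342C and R448Q around Mycn had intervals that did not hold the whole-list share. R448Q lacked 10.2% there (95% exact interval 3.40 to 22.2%, 27.7% over all WT peaks, 11.9 peaks expected at equal strength), and R342C 12.2% (4.63 to 24.8%, 26.1%, 10.98 peaks). Around Myc, Q418R lacked 37.3% (24.1 to 51.9%, 17.1 peaks expected), the largest share in that window.

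The strongest distant sites were open in every genotype. On the Pvt1 side of Myc, chr15:62106433-62107019 lay 116 kb from the gene inside Pvt1 and stood at 91.9 in R339Q, 97.6 in R342C, 94.97 in S354F, 89.5 in K365T, 94.97 in R377C, 95.96 in R377H, 98.4 in Q418R, 94.3 in R448Q and 97.5 in H455R, and at 98.02 in WT. Nearer the gene, chr15:62092404-62093262, also in Pvt1, stood at 88.6 in R448Q to 96.2 in Q418R and at 93.4 in WT. On the other flank, chr15:61927652-61928234 lay 57.1 kb away with no gene over it and stood at 91.7 in R339Q, 94.7 in R342C, 80.02 in S354F, 93.2 in K365T, 96.5 in R377C, 95.9 in R377H, 79.7 in Q418R, 89.2 in R448Q and 79.95 in H455R, and at 83.3 in WT. It was the farthest site of that flank to be present in all 10 lists. In 6 mutants it ranked above its rank in WT. In lists cut to equal size it did so in 8, since S354F then stood at 76.8 and Q418R at 78.04, against 76.4 in WT, and H455R at 73.5. These sites were named for the highest median percentiles in the window, so their lead over the weaker peaks on Myc follows from that choice. Over all regions the median percentile was 40.9 on the Pvt1 side, 18.7 on the other flank and 27.7 on Myc itself.

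Mycn had strong sites on both flanks. Region chr12:12927082-12928165, 7.93 kb past the far end of the gene, stood at 93.3 in R377C to 97.3 in Q418R and at 94.97 in WT. Beyond the start, chr12:13002011-13002685, 60.2 kb away, stood at 94.4 in R448Q to 97.8 in S354F and at 98.6 in WT, and chr12:12986790-12988044, in the non-coding RNA gene Gm35208, at 89.97 in R342C to 96.6 in Q418R and at 96.8 in WT. The strongest sites around Mycl lay in neighbouring genes. In Mfsd2a, which encodes a transporter of lysophospholipids, chr4:122955064-122956111 stood at 94.2 in R339Q to 99.3 in R342C and at 99.1 in WT. In Ppie, a cyclophilin gene, chr4:123139326-123140185 stood at 91.98 in S354F to 98.8 in R448Q and at 97.8 in WT, and in Cap1, a gene of actin turnover, chr4:122885510-122886823 at 91.9 in R339Q to 97 in R377H and at 94.9 in WT. Over the 10 lists the widest of these 6 ranges was 6.87 points.

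The outermost sites that all 10 lists held were of middle or high rank. Around Mycn these were chr12:12752086-12752544, 184 kb past the far end, at 29.8 in R339Q to 71.5 in R377C and 59.7 in WT, and chr12:13027937-13028437, 86.1 kb before the start, at 34.6 in R339Q to 67.4 in H455R and 61.2 in WT. R339Q ranked both lowest in the whole lists. In lists cut to equal size the first stood at 30.5 in R339Q, 27.8 in R342C and 28.6 in Q418R. Around Mycl they lay in Ppt1, a gene of lysosomal protein turnover, and in Nt5c1a, a nucleotidase gene. The Ppt1 site, chr4:122836034-122837152, lay 158 kb before Mycl at 75.3 in R342C to 89.1 in S354F and 82.1 in WT. The Nt5c1a site, chr4:123200695-123202637, lay 198 kb past Mycl at 46.2 in Q418R to 69.9 in R377C and 60.7 in WT.

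Other sites that every list held were named for the widest ranges in their window. Their larger spread in rank than that of the strongest sites follows from that choice. In the intergenic stretch between Myc and Pvt1, chr15:62031784-62032519 lay 41.4 kb from Myc and stood at 34.6 in R339Q, 69.8 in R342C, 86.9 in S354F, 81.1 in K365T, 71.5 in R377C, 61.8 in R377H, 41.8 in Q418R, 75.6 in R448Q and 80.96 in H455R, and at 84.3 in WT. Its range of 52.3 points was the widest among the Myc regions that every list held, which is why it was named. The median range was 24.4 points among regions of the same strength decile held by all 10 lists. Since the site was picked for its range, nothing is drawn from that gap. R339Q and Q418R were far below the rest. S354F ranked it above WT, and in lists cut to equal size so did K365T, at 78.2 against 77.7 in WT. At the far edge of the window, in Pvt1, chr15:62189585-62190925 ran from 29.5 in K365T to 72.8 in R342C, with WT at 50.8.

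In the Mycl window, chr4:123035972-123037338, in Trit1, the gene of a transfer RNA isopentenyltransferase, stood at 63.5 in R339Q, 67 in R342C, 50.2 in S354F, 50.4 in K365T, 80.6 in R377C, 59.8 in R377H, 60.4 in Q418R, 23.2 in R448Q and 69.2 in H455R, and at 82.5 in WT. All 9 mutants ranked it below WT, and R448Q lowest by a wide margin. With lists cut to equal size it stood at 75.8 in R377C, against 75.2 in WT. Close behind the far end of Mycl, at 2.60 kb, chr4:123005088-123005755 stood at 62.3 in R339Q, 50.1 in R342C, 47.3 in S354F, 17.6 in K365T, 55.6 in R377C, 30.3 in R377H, 26.6 in Q418R, 10.8 in R448Q and 62.4 in H455R, and at 22.4 in WT. In lists cut to equal size neither R448Q nor WT held that region, and K365T held it at 5. Around Mycn the widest ranges were at chr12:12866576-12867001, 14.2 in R339Q to 68.2 in R448Q and 63.9 in WT, and at chr12:12983067-12983527, 35.2 in R448Q to 78.9 in R342C and 63.5 in WT.

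Over the 76 regions that all lists held, the median range was 24.4 points, beside 25.1 over all such regions of the genome, with 27.2 around Myc, 17.9 around Mycn and 24.6 around Mycl. R339Q ranked lowest of the 10 lists at 23 of the 76 (30.3%, beside 20.4% genome-wide) and R448Q at 18 (23.7%, beside 14.2%). Other lists ranked lowest less often than genome-wide, among them Q418R at 7 (9.21%, beside 19.8%) and S354F at 1 (1.32%, beside 6.43%). WT ranked highest at 23 (30.3%, beside 22.2%). The WT list is also the longest and the R339Q list the shortest.

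Few strong WT sites were missing. Of the 85 WT peaks in the stronger 50% of the WT list, 3 in R339Q, 2 in R342C, 1 in S354F, 4 in K365T, 1 in R377C, 2 in R377H, 4 in Q418R, 4 in R448Q and 4 in H455R had no overlap, and the numbers at equal strength across the genome were 8.96 in R339Q, 4.50 in R342C, 4.32 in S354F, 5.09 in K365T, 2.94 in R377C, 4.77 in R377H, 6.46 in Q418R, 6.75 in R448Q and 2.66 in H455R. Counts were below that number in 8 mutants and above it in H455R. The missing peaks came from 13 regions, 4 around Myc, 3 around Mycn and 6 around Mycl.

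**Figure D3:**
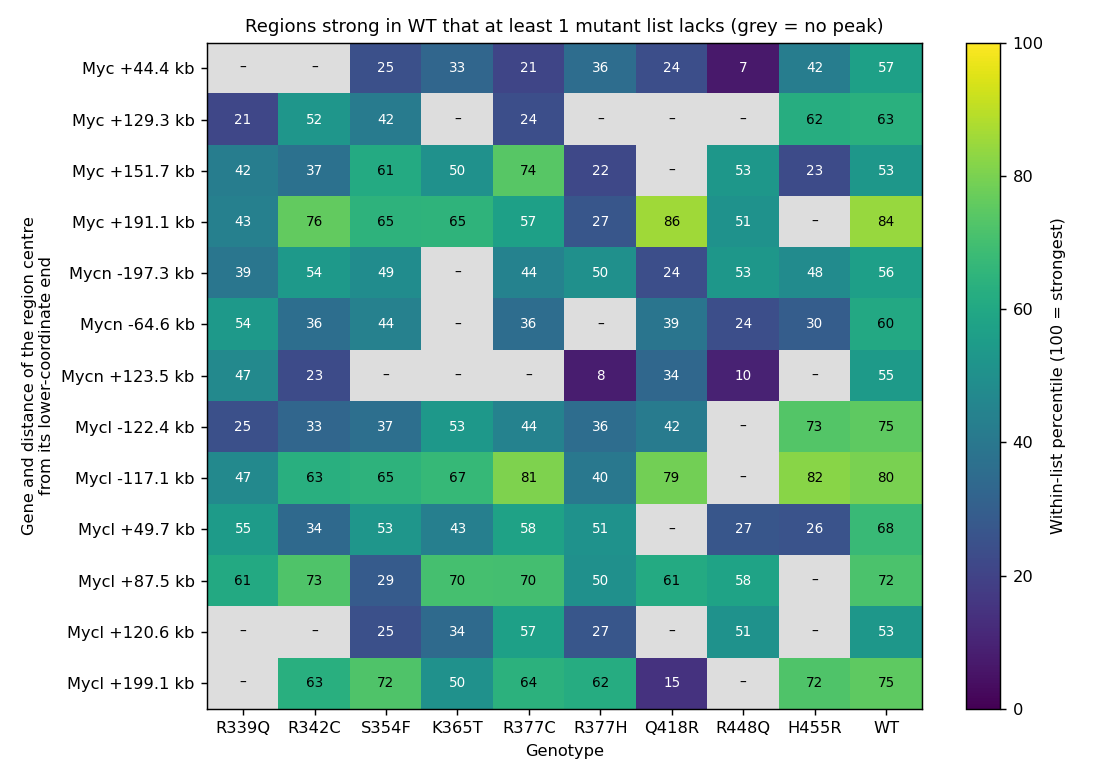
Within-list percentile (colour and number, with a dash on grey where a list holds no peak) of the 13 regions whose WT peak is in the stronger 50% of the WT list and that at least 1 mutant lacks, with regions by gene down the page and genotypes across it, mutants on the left and WT on the right. No mutant lacks more than 4 of the 13 regions.

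Among the sites missing around Myc, the one with the highest WT rank was chr15:62175860-62176950 in Pvt1, 185 kb from the gene. It had no peak in H455R, and stood at 43.4 in R339Q, 75.9 in R342C, 64.6 in S354F, 65.2 in K365T, 56.9 in R377C, 26.7 in R377H, 85.7 in Q418R and 51.1 in R448Q, and at 84.4 in WT. Further in, chr15:62114398-62114927, in Pvt1, was missing in K365T, R377H, Q418R and R448Q, and ran from 21.4 in R339Q to 62.1 in H455R where present, with WT at 63.5. The intergenic chr15:62029552-62029859, 39.2 kb past Myc, was missing in both zinc finger 3 mutants, R339Q and R342C, and stood at 7.03 in R448Q to 42.4 in H455R in the other 7 and at 56.9 in WT. Region chr15:62136822-62137265 was missing in Q418R alone, with 21.8 in R377H to 73.9 in R377C in the other mutants and 52.8 in WT.

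The 3 such sites around Mycn all had WT percentiles not far above the median of the list, and K365T lacked each of them. Region chr12:12738474-12739031 was missing in K365T alone, chr12:12871217-12871858 in K365T and R377H, and chr12:13059310-13059832 in S354F, K365T, R377C and H455R. Their WT percentiles were 56.4, 60.4 and 54.7, and the mutants that held them ranged from 24.1 in Q418R to 54.2 in R342C, from 24.02 in R448Q to 54.1 in R339Q and from 8.18 in R377H to 47.1 in R339Q. In K365T the share of peaks within 2500 kb of Mycn was -0.12 (log2, against the median of the other lists), and its part in these values was not tested.

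In the Mycl window a pair of neighbouring sites in Cap1 was missing in R448Q alone. Region chr4:122878328-122878684 stood at 40 in R377H to 82.2 in H455R in the other mutants and at 79.7 in WT, and chr4:122873040-122873434 at 24.6 in R339Q to 73.4 in H455R and at 75.3 in WT. R448Q also lacked chr4:123194423-123194943 in Hpcal4, as did R339Q, where the other mutants ran from 14.5 in Q418R to 72.4 in S354F and WT stood at 75.3. The share of peaks within 2500 kb of Mycl in R448Q was -0.18 (log2, against the median of the other lists), and its part in these losses was not tested. H455R lacked chr4:123082870-123083331, over the non-coding genes Gm12923 and Gm46868 (WT 71.7), and Q418R lacked chr4:123044983-123045582 in Trit1 (WT 67.8). Region chr4:123116012-123116429, over Bmp8b, which encodes a ligand of the BMP family, and Oxct2b, was missing in R339Q, R342C, Q418R and H455R (WT 52.8).

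Mutant peaks without any WT overlap, called gained here, were fewer around Myc than around Mycn or Mycl in 8 mutants. Over the 3 windows they made up 10 of 119 peaks in R339Q (8.40%, beside 7.14% of that whole list), 11 of 134 peaks in R342C (8.21%, beside 9.77% of that whole list), 11 of 135 peaks in S354F (8.15%, beside 8.82% of that whole list), 12 of 132 peaks in K365T (9.09%, beside 8.94% of that whole list), 21 of 148 peaks in R377C (14.2%, beside 10.8% of that whole list), 17 of 131 peaks in R377H (12.98%, beside 12.1% of that whole list), 12 of 125 peaks in Q418R (9.60%, beside 7.97% of that whole list), 14 of 135 peaks in R448Q (10.4%, beside 14.8% of that whole list) and 20 of 147 peaks in H455R (13.6%, beside 13.1% of that whole list). Every whole-list share lay inside the 95% exact interval of its mutant. In lists cut to equal size the shares were 19.3% in R339Q (beside 19.9% of all its peaks) and 17.9% in Q418R (beside 17.2% of all its peaks). Around Myc the counts were 0 in R339Q, 1 in R342C, 1 in S354F, 1 in K365T, 4 in R377C, 1 in R377H, 2 in Q418R, 2 in R448Q and 1 in H455R, under the numbers at equal strength of 2.35 to 6.42 in each mutant. The interval of H455R around Myc (2.33%, 0.0589 to 12.3%) was the one among the 27 of single windows that did not hold the whole-list share. Around Mycn they were 6 in R339Q, 4 in R342C, 7 in S354F, 6 in K365T, 9 in R377C, 10 in R377H, 6 in Q418R, 10 in R448Q and 11 in H455R, with 3.20 to 9.65 at equal strength, and above that number in every mutant but R342C. Around Mycl they were 4 in R339Q, 6 in R342C, 3 in S354F, 5 in K365T, 8 in R377C, 6 in R377H, 4 in Q418R, 2 in R448Q and 8 in H455R, with 2.14 to 7.10 at equal strength, and above that number in every mutant but R448Q, by as little as 3 against 2.90 in S354F.

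The 9 counts share the WT list they were set against, and often the same region. By region, 6 of 55 around Myc had no WT peak, 29 of 75 around Mycn (38.7%) and 23 of 76 around Mycl, beside 26.5% of the regions of the genome. In R339Q none of the 36 peaks around Myc was without a WT overlap, which allows a share of up to 9.74% (exact 95% upper limit).

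Nearly all gained peaks were weak. A peak in the stronger 50% of its list appeared at 3 regions, all around Mycn. R448Q alone held chr12:13009509-13009808, 67.7 kb before the start of Mycn, at 75.6, and chr12:12890277-12890596, 45.5 kb past its far end, at 52.3. H455R held chr12:12878166-12878470 at 55.02, where R339Q stood at 26.8 and R377H at 11.3.

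No gained region was shared by all 9 mutants, and 5 of 58 were shared by at least 5. Over the genome 195 of 58842 regions without a WT peak were shared by all 9 and 5886 by at least 5, so the count near the 3 genes is close to the background. Besides the small regions at the Mycn start and inside Mycl, the 5 regions were chr12:12774444-12774802 and chr12:12778750-12779144, each in 6 mutants and 161 and 157 kb past the far end of Mycn, and chr15:61789939-61790265, 195 kb before Myc. The first stood at 17.4 in R339Q to 35.3 in R377C, the second at 1.30 in R448Q to 38.7 in R377H, and the site before Myc, held by R342C, S354F, K365T, R377C and R448Q, at 5.93 in R377C to 32.8 in S354F. None of the 5 reached the stronger 50% of any list.

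**Figure D4:**
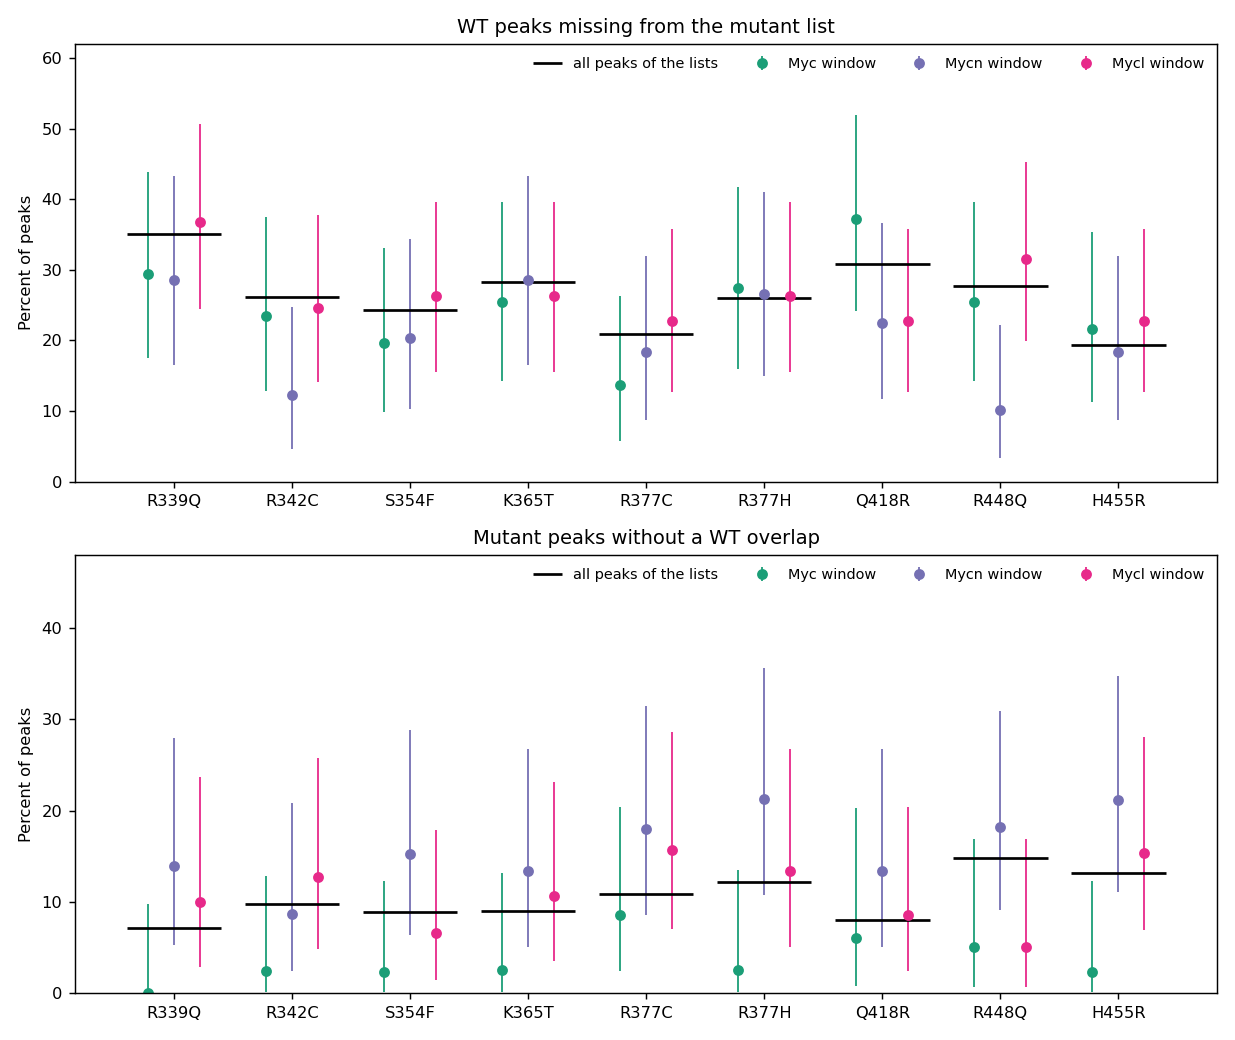
Percentage of WT peaks missing from each mutant (top) and of mutant peaks without a WT overlap (bottom), for the windows of Myc, Mycn and Mycl, with 95% exact binomial intervals as bars and the share over all peaks of the lists as black lines. In the lower panel Myc runs from 0 to 8.51% and Mycn from 8.70 to 21.3%.

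Genes of the MAX network, which holds partners and antagonists of MYC proteins, had an open gene end in every genotype. All 11 genes listed under the network here, among them Max, the shared partner, and the antagonists Mxd1, Mnt and Mga, had a gene-end peak in all 10 lists, as did 91.5% of all protein-coding genes with such a peak in WT. Max stood at 93.99 to 96.2 in the mutants and at 95.1 in WT. The antagonist Mxd1 stood at 99.1 to 99.7 and at 99.1 in WT. Both were far above Myc in every list, but others of the 11 were not. Zbtb17 stood below Myc in R339Q (37.2 against 37.3) and in Q418R (25.4 against 26.9). Mxd3 and Mlxipl had medians of 52.4 and 52.3 over the 10 lists.

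Of 11 cofactors and turnover factors of MYC, Ruvbl2 and Skp2 lacked a gene-end peak in some mutants, 6 of 99 pairs of gene and mutant, beside 3.54% over all protein-coding genes with such a peak in WT. Skp2, a ubiquitin ligase subunit that acts on MYC, had none in R339Q, R342C, Q418R and R448Q, stood at 16.1 to 29.5 in the other mutants and at 24.8 in WT. Ruvbl2, a subunit of chromatin-remodelling complexes, had none in K365T and Q418R, stood at 8.34 to 26.3 in the other mutants and at 11.7 in WT. Of 9 MYC target genes only Ldha, which encodes a lactate dehydrogenase subunit, lost its peak in any mutant, in 6 of 81 pairs: it stood at 6.72 in R342C, 14.8 in S354F and 24.3 in H455R, and at 36.2 in WT. Over all genes the share lost was 5.34% in R339Q, 3.44% in R342C, 3.26% in S354F, 3.7% in K365T, 2.58% in R377C, 3.28% in R377H, 4.65% in Q418R, 3% in R448Q and 2.6% in H455R. The other 8 targets, such as Ncl (nucleolin) and Odc1 (ornithine decarboxylase), kept theirs in all 10 lists, Ncl at 91.4 to 96.5 in the mutants and 95.7 in WT.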

How the data were processed

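Accessible DNA was measured by Omni-ATAC-seq in 20 samples of 10 genotypes, with 50000 cells a reaction and paired-end reads of 150 bp, per the labels' protocols. The build mm10 and the tools Bowtie2, Trim Galore, deepTools and MACS2 are named in the submitters' processing notes. How reads were shifted, how duplicates were treated and which threshold was used for calling is not stated. The deposited lists, 1 for each genotype, have 5 columns and no header, and each holds both replicates, since 2 library codes stand in every peak name. Column 5 of the deposited lists was taken, from its values, to be the fold enrichment that MACS2 gives (a ratio of observed to expected coverage), and it served only as a rank inside a list. Read totals were not used here, and the labels do not say whether replicates were separate cultures.

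Overlaps, shares and percentiles were computed in Python 3.11.15 (pandas 2.3.3, NumPy 2.4.6, SciPy 1.17.1, Matplotlib 3.10.9), and the overlap step was tested on simulated lists. Background coverage is the inverse of the step of the fold values minus 1. Intervals are Clopper-Pearson 95% intervals. Numbers at equal strength come from the genome-wide share in 20 strength bins of the WT list, or of the mutant list for gained peaks. Gene ends are RefSeq GRCm38.p6 (the coordinates of mm10), without exons, and a gene-end peak lies within 1 kb of either end. Where several peaks of a list fall in 1 region, the highest percentile is given. Regions were named where they lay at a gene, had 1 of the 3 highest median percentiles or 1 of the 2 widest ranges, were strong in WT and missing in a mutant, or lacked a WT peak and were strong or shared by 5 mutants. The farthest regions present in all lists were named as well. The genes, gene lists and naming rule were chosen with earlier results of these data known. Peak sequences were not used here.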

Additional observations from a re-analysis of the deposited data

How the results depend on the processing

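Each list is 1 pooled set of peaks, and no value was recomputed without a replicate. No paired analysis was possible because both replicates of a genotype are joined in 1 list. Depth is known only as background coverage, and read depth limits which weak peaks a list holds.

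Keeping the stronger 50% of peaks lowered most shares. The WT peaks missing were then 3.53% in R339Q, 2.35% in R342C, 1.18% in S354F, 4.71% in K365T, 1.18% in R377C, 2.35% in R377H, 4.71% in Q418R, 4.71% in R448Q and 4.71% in H455R, where all WT peaks gave 10.8% in R339Q, 5.46% in R342C, 5.24% in S354F, 6.19% in K365T, 3.59% in R377C, 5.82% in R377H, 7.80% in Q418R, 8.09% in R448Q and 3.24% in H455R. Gained peaks were 0% in R339Q, R342C, S354F, K365T, R377C, R377H and Q418R, 2.94% in R448Q and 1.45% in H455R, where all peaks gave 0.843% in R339Q, 1.18% in R342C, 0.679% in S354F, 1.72% in K365T, 1.15% in R377C, 2.54% in R377H, 1.47% in Q418R, 4.39% in R448Q and 1.85% in H455R. The WT peaks found in all 9 mutants came to 82.6% around Myc, 89.7% around Mycn and 81.8% around Mycl.

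With each list cut to its strongest 121032 peaks, the WT peaks missing were 16.96% in R339Q, 12.5% in R342C, 11.6% in S354F, 14.3% in K365T, 10.7% in R377C, 18.8% in R377H and 15.2% in Q418R, where all WT peaks gave 21.6% in R339Q, 17.5% in R342C, 16% in S354F, 18.5% in K365T, 15.6% in R377C, 19.1% in R377H and 18.9% in Q418R. In R448Q and H455R 19.6% each were missing, the highest shares, beside 21.4% and 16.2% of all WT peaks. At that size, gained peaks were 19.3% in R339Q and 17.9% in Q418R, and WT peaks around Mycl found in all 9 mutants 67.5%. The median gene-end percentile was 9.43 at Myc, 52.6 at Mycn (1 list) and 65.3 at Mycl, beside 25.1, 1.86 and 71.1 in the whole lists. Gene ends of 2 kb gave 64.6 at Mycn. A window of 500 kb gave 25.5% missing in R377C and 30.9% in R448Q.

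At equal size 11 values, those of missing peaks in R448Q and H455R among them, stayed within their intervals or spread. So did the other 19 with 500 kb and 2 with 2 kb ends, all 21 with a window of 100 kb and all 21 with 50% of a peak covered. Leaving aside the R339Q list, an alternative chosen after seeing the data, did the same for all 3 windows, at 49.02%, 57.1% and 50.9% found in the other 8 mutants.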
